A study of Homo sapiens with 4 samples.

Results

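The solute carrier genes with measurable expression were followed across 4 conditions of BEAS-2B, an established human cell line from the epithelium of the bronchi. A gene was a member if its symbol was SLC, digits, A and digits with nothing after them, and if its raw read counts summed over the 4 libraries reached 400. Of the 24424 symbols listed, 334 had this form, and 157 of them were members. The members were chosen by their summed counts alone, so the height of their counts is a description. The members nearest above the limit were SLC16A13 with 405 counts, SLC9A9 with 428, SLC1A3 with 435 and SLC25A42 with 456, and those below it included SLC27A5 with 357, SLC25A35 with 319 and SLC2A11 with 316. By substrate, as assigned from general knowledge, the members were 36 mitochondrial carriers, 28 carriers of other organic solutes, 23 metal transporters, 22 amino acid transporters, 22 ion transporters, 9 sugar transporters, 5 nucleotide sugar carriers, 3 nucleoside or nucleobase transporters and 9 genes without a settled substrate.

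Solute carriers are membrane proteins that move small molecules and ions either down a gradient or coupled to the gradient of another solute such as sodium, protons or a second amino acid. They set what a cell can take up from the fluid around it, what it can release, and what its mitochondria, lysosomes and Golgi exchange with the cytosol. In airway epithelium they are known for the salt and water balance of the surface fluid, for phosphate and nutrient uptake, and for the handling of zinc and iron, metals that host and microbe both need during inflammation.

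The Control cells received no treatment. The LPS cells received lipopolysaccharide (LPS), a bacterial cell wall component, for 2 hr. The WT PDZ+LPS and mut PDZ+LPS cells received a peptide of the PDZ motif of the tight junction protein ZO-1, wild-type or mutant, for 24 hr and then LPS for 2 hr. All 4 conditions used the same cell line, and no library of cells with a peptide alone is analysed here. Each condition had 1 library, so no difference below could be checked against replicates or given a p-value. The values in parentheses after a log2 fold change are exact 95% (Clopper-Pearson) intervals for the counts of 2 libraries. These intervals hold counting error alone and set library against library. They are too narrow for a statement on conditions, since they hold no variation between cultures or library preparations. In addition, reads counted without molecular identifiers need not come from separate molecules.

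The libraries held 19682929 to 25155647 counted reads, with the fewest in mut PDZ+LPS. Levels are read counts divided by a size factor for each library, here called normalized counts. Where no library is named they run from Control through LPS and WT PDZ+LPS to mut PDZ+LPS. Fold changes are differences of log2(normalized count + 1). The epithelial keratins KRT7, KRT8 and KRT18 had 12657 to 48326 counts and KRT5 had 1166 to 1408. EPCAM had 37 to 51, KRT19 87 to 216 and CDH1 308 to 634. Of the 5 leukocyte markers PTPRC was at 0 in every library, CD3E had 0 to 1 and CD79A 4 to 7, while CD14 had 362 to 507 and CD68 304 to 358. Among the mesenchymal markers VIM had 21167 to 23893 counts, within the range of the 3 keratins. COL1A1 had 331 to 449, ACTA2 64 to 89, COL1A2 6 to 8 and DCN 1 to 6. The 3 endothelial markers had at most 8 each. A bulk library cannot tell fewer cells that express a gene from less RNA per cell. Where a mut PDZ+LPS value is compared with another library, transcript length and GC content move with it, as described below.

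Members differed widely in level. Per 1000 bases of the longest coding transcript, the highest in Control was SLC25A5, the adenine nucleotide translocase ANT2 of the inner mitochondrial membrane, with 9454 normalized counts. The amino acid transporter SLC38A2 (SNAT2) followed with 3447, the lactate exporter SLC16A3 (MCT4) with 3187, and the leucine transporter SLC7A5 (LAT1) with 2385. The phosphate cotransporter SLC34A2 was near the foot, with 23.2.

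Most members differed by less than 2-fold among the 4 libraries. The ratio of the highest to the lowest normalized count had a median of 1.34 over the 157 members. It was under 1.25 for 51 members and over 2 for 13. The same ratio was not computed for all genes, so these counts only describe the members. The flattest was SLC25A5, with normalized counts of 12044 for Control, 11886 for LPS, 11390 for WT PDZ+LPS and 11887 for mut PDZ+LPS. The widest were SLC16A6 at 4.13-fold, SLC2A6 at 4.09-fold and SLC39A8 at 4.05-fold, and in all 3 of these the Control library was the lowest.

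LPS/Control asked which transporters differed after LPS alone. A member was called at a difference of at least 2-fold with 16 or more normalized counts in either library, which all 157 members reached in every comparison. Of the 157 members, 9 were called higher, which is 5.73%, beside 3.46% of the 13277 genes that passed the same expression rule and 2.74% of the 10883 genes with 400 or more summed counts. None was called lower, beside 1.41% and 0.193% of the same genes. The 9 were the zinc importers SLC39A8 and SLC39A14, the iron transporters SLC11A2 and SLC25A37, the glucose transporter family member SLC2A6, the ion cotransporters SLC12A7 and SLC34A2, the monocarboxylate transporter family member SLC16A6, and the arginine transporter SLC7A2. At 1.5-fold, 19 members were higher (12.1%) and 2 lower (1.27%), beside 5.06% and 1.87% of genes with the same summed counts. The counting interval lay above 0 for 55 members (35%) and below 0 for 30 (19.1%), beside 29% and 22.6%. The median log2 fold change of the 157 members was 0.029, beside -0.0010 for the 13072 genes whose mean reached 16 normalized counts, so the members as a whole stood near the level of all genes. Total-count scaling in place of the geometric size factors set the median of all expressed genes at -0.13, and LPS/Control values that are above 0 by less than that shift are below 0 under it. The counts of members beyond counting error, meaning that the interval leaves out 0, hold for the geometric size factors. Under total-count scaling SLC11A2 (0.87), SLC25A37 (0.92) and SLC7A2 (0.998) were below a log2 fold change of 1, and 6 members were 2-fold higher.

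**Figure D1:**
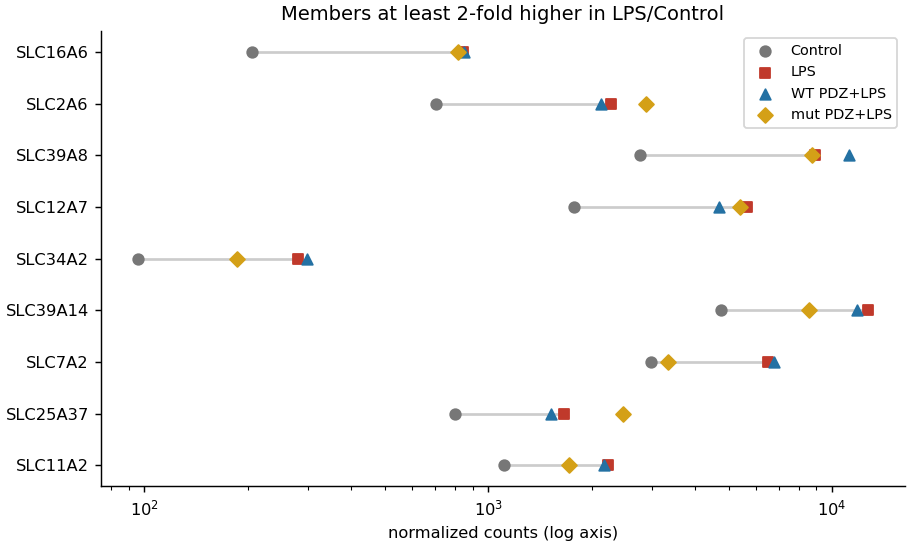
Normalized counts (horizontal log axis) of the 9 solute carrier genes at least 2-fold higher in LPS/Control, 1 row a gene, with 1 point for each of the 4 single libraries and a grey line from Control to LPS. Control is the lowest point in every row, and mut PDZ+LPS, as counted and before any correction, lies close to Control for SLC7A2 (3324 against 2969) but above all others for SLC2A6 (2882) and SLC25A37 (2472).

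Promoters are shown for genes called in LPS/Control, which were higher in LPS than in Control together. RefSeq (GRCh38.p14) gave 250 bases upstream of the start for 127 of the 157 members and 5 of the 9 called in LPS/Control. In these windows 3 motifs were searched on both strands. The kB form was stricter than the general kB consensus at some bases and looser at another. TGCNCNC was a loose form of the metal response element, so some of its matches lie outside the stricter core of that element. TGATGNAA was used for the C/EBP-ATF site. TGCNCNC was in 69 (54.3%), beside 48.4% of all 27305 promoters and 56.6% of the 8408 of genes with the same summed counts, and TGATGNAA in 3 (2.36%), beside 3.19% and 1.19%. The searched kB form was in 0, beside 1.73% and 2.07%, which leaves other forms of the kB site unsearched. A match is a description of letters, not a site, and a missing match says only that these letters are not in this window. The windows of SLC2A6 (chr9:133479100-133479349, minus strand), SLC12A7 (chr5:1112064-1112313, minus strand), SLC34A2 (chr4:25655601-25655850, plus strand) and SLC39A8 (chr4:102345254-102345503, minus strand) follow, each 5′ to 3′ on the strand of the gene, with TGCNCNC matches on either strand in capitals. SLC2A6 and SLC12A7 have 2 matches each, SLC34A2 has 1 close to its start, and SLC39A8 has 0. The fifth window, of SLC11A2, also has 0 and is not shown.
SLC2A6: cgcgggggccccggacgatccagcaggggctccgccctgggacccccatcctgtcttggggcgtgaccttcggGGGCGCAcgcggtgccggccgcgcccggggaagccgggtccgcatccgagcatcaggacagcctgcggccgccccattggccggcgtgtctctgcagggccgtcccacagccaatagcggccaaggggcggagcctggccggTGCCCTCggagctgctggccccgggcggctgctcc
SLC12A7: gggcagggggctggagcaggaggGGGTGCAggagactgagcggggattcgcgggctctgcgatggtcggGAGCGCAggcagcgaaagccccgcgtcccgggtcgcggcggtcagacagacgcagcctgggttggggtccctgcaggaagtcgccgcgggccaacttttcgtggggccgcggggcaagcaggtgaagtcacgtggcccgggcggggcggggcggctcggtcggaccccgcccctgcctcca
SLC34A2: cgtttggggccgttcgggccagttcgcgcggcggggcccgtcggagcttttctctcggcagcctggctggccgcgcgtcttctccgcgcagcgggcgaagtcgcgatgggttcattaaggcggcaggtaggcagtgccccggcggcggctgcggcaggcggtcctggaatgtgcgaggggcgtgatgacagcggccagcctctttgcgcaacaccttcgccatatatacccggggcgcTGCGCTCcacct
SLC39A8: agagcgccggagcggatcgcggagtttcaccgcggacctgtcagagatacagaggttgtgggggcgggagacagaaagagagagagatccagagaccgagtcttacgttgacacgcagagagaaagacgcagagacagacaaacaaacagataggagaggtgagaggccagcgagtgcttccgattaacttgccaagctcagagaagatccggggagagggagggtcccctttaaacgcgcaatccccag

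WT PDZ+LPS/LPS asked what differed with the wild-type peptide among cells that all had LPS. No member reached 2-fold in either direction, beside 0.635% of 13236 genes higher and 0.733% lower, or 0.0184% each way among genes with the members' summed counts. None reached 1.5-fold either, beside 0.147% higher and 0.211% lower among the latter genes. The range over all 157 members was -0.48 to 0.38. The counting interval lay above 0 for 23 members and below 0 for 21, or 14.6% and 13.4%, beside 13.4% and 10.8% of genes with the same summed counts. By class, 8 carriers of other organic solutes were higher beyond counting error and 1 lower, while 8 mitochondrial carriers and 6 ion transporters were lower and 2 of each higher.

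mut PDZ+LPS/LPS asked the same of the mutant peptide. No member was 2-fold higher, beside 2.05% of 13378 genes and 0.193% of genes with the same summed counts. SLC22A3 and SLC7A11 were 2-fold lower, which is 1.27% of members, beside 1.9% of genes passing the expression rule and 1.22% of genes with the same summed counts. In mut PDZ+LPS/WT PDZ+LPS, the direct comparison of the peptides, no member was 2-fold higher. The shares were 2.12% of 13372 genes and 0.221% of genes with the same summed counts. SLC7A2 alone was 2-fold lower there, or 0.637%, beside 2.14% and 1.47%. Relative to LPS, the counting interval lay below 0 for 73 members (46.5%) and above 0 for 32 (20.4%), beside 39.4% and 31.3% of genes with the same summed counts. At 1.5-fold, 23 members were lower and 2 higher, beside 9.07% and 4.24%. Relative to WT PDZ+LPS it lay below 0 for 76 (48.4%) and above 0 for 30 (19.1%), beside 39.7% and 31.8%, and at 1.5-fold 23 were lower and 3 higher, beside 10.2% and 4.39%.

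**Figure D2:**
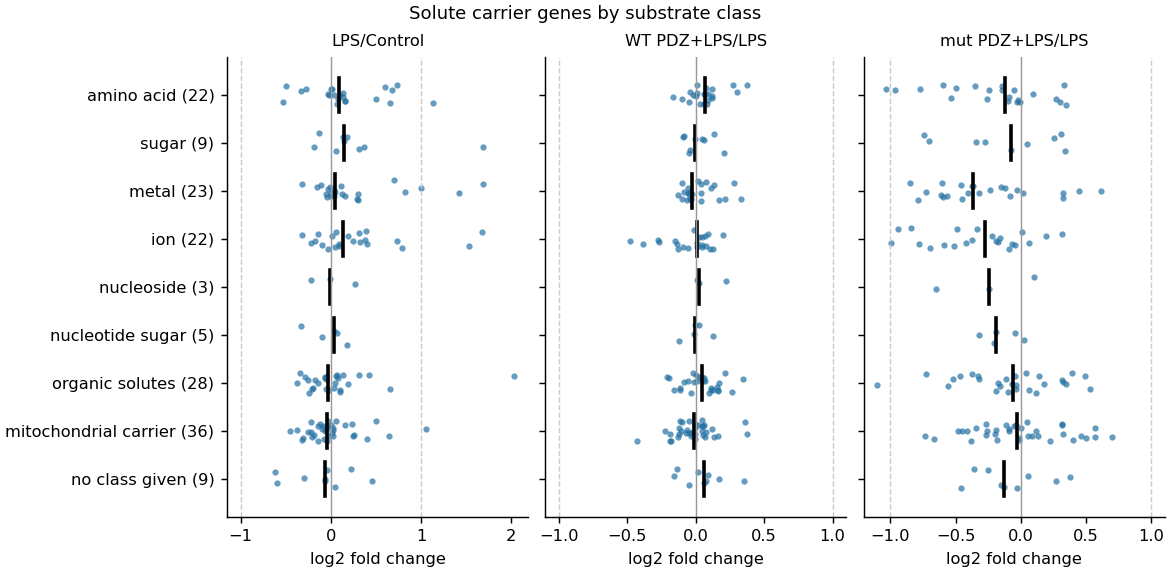
Log2 fold change (horizontal axes, a separate scale in each panel) of the 157 members by substrate class, with the number of members in brackets. Each point is 1 gene, the black bar is the median of the class, and dashed lines mark 2-fold. The members past 2-fold in LPS/Control lie to the right, none is past it in WT PDZ+LPS/LPS, and SLC22A3 and SLC7A11 are past it to the left in mut PDZ+LPS/LPS.

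Long transcripts stood lower in the mut PDZ+LPS library than in the other 3. Across the 157 members, which share the same libraries and are not independent, Spearman's rho between the length of the longest coding transcript and the value for mut PDZ+LPS/LPS was -0.518, against -0.603 over 11751 expressed genes with a length. It was 0.090 in WT PDZ+LPS/LPS and 0.253 in LPS/Control over the members. Transcripts richer in GC stood higher in mut PDZ+LPS/LPS. There rho with GC content was 0.560 over the members and 0.413 over the expressed genes. Over the members it was -0.011 in WT PDZ+LPS/LPS and -0.092 in LPS/Control. The 52 shortest members, of 1274 to 3010 bases, had a median of 0.081 in mut PDZ+LPS/LPS. The 53 longest, of 4537 to 20987 bases, had a median of -0.35, with 46 of them below 0. A correction that removed the trend over length and then GC content across all expressed genes set these medians at -0.094 and -0.024. It left no member at 2-fold in mut PDZ+LPS/LPS, with SLC7A11 at -0.56 and SLC22A3 at -0.99. In mut PDZ+LPS/WT PDZ+LPS it left 1 member lower, which was SLC29A1 and no longer SLC7A2. The part of transcript length and GC content in the mut PDZ+LPS differences was not tested in other ways, and corrected values are therefore printed with the mut PDZ+LPS fold changes of single genes.

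**Figure D3:**
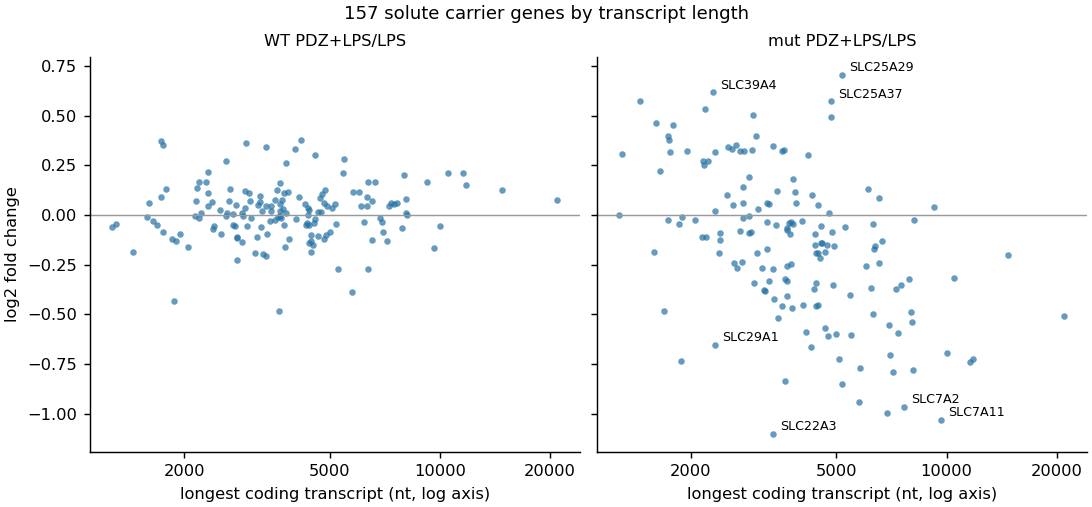
Log2 fold change (vertical axis) against the length of the longest coding transcript in bases (horizontal log axis) for the 157 members, 1 point a gene, in WT PDZ+LPS/LPS (left) and mut PDZ+LPS/LPS (right). The points on the left lie between -0.48 and 0.38 at every length, and those on the right lie lower as transcripts get longer, with Spearman's rho of -0.518. SLC22A3 and SLC29A1 are low although their transcripts have 3348 and 2326 bases.

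Metal transporters held 3 of the 9 genes called in LPS/Control. Zinc in the cytosol depends on the ZIP family (SLC39A), which brings zinc into the cytosol, and the ZnT family (SLC30A), which takes it out. SLC39A8 (ZIP8), an importer of zinc, manganese and cadmium, had normalized counts of 2768 for Control, 8904 for LPS, 11196 for WT PDZ+LPS and 8720 for mut PDZ+LPS. Control was the lowest of the 4 and WT PDZ+LPS the highest. Its log2 fold change was 1.69 (1.63 to 1.74) for LPS/Control and 0.33 (0.29 to 0.37) for WT PDZ+LPS/LPS, the latter among the 6 highest of all members. In mut PDZ+LPS/LPS it was -0.030 (-0.074 to 0.014), or 0.19 after the correction, and before correction no difference was detectable at this depth.

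SLC39A14 (ZIP14), which imports zinc, manganese and iron that is not bound to transferrin, had 4762 for Control, 12724 for LPS, 11839 for WT PDZ+LPS and 8575 for mut PDZ+LPS. All 3 libraries with LPS were above Control, and mut PDZ+LPS was the lowest of them. The log2 fold change was 1.42 (1.37 to 1.46) for LPS/Control. Against LPS it was -0.10 (-0.14 to -0.068) with the wild-type and -0.57 (-0.61 to -0.53) with the mutant peptide, the latter -0.30 after correction. SLC39A8 was therefore higher and SLC39A14 lower in WT PDZ+LPS than in LPS, beyond counting error in each.

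SLC11A2 (DMT1), the proton-coupled importer of ferrous iron, had 1111 for Control, 2227 for LPS, 2164 for WT PDZ+LPS and 1721 for mut PDZ+LPS. Control was the lowest and mut PDZ+LPS lay between Control and the other 2 libraries. It stood at the threshold itself, with 1.003 (0.90 to 1.10) for LPS/Control, and was under 2-fold with TMM, upper-quartile or total-count scaling and with the correction. The copper importer SLC31A1 (CTR1) had 1865, 1873, 1892 and 1227 and did not differ detectably in LPS/Control, at 0.0060 (-0.083 to 0.095). SLC40A1 (ferroportin), the iron exporter, had 107 summed counts and was not a member.

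Of 14 ZIP genes, 11 were members. In LPS/Control 7 had values above 0 and 4 below, with 2 at 2-fold and a median of 0.043, so most of the family was near the level of all genes. Of 9 ZnT genes, 6 were members, with a median of 0.039 and none at 2-fold. Of the members outside the naming rule, SLC30A7, which loads zinc into the Golgi, was at 0.70 (0.61 to 0.79) and SLC41A2, a magnesium transporter, at 0.82 (0.62 to 1.02), both past 1.5-fold. SLC30A1 (ZnT1), the zinc exporter of the plasma membrane, had 593 for Control, 475 for LPS, 578 for WT PDZ+LPS and 313 for mut PDZ+LPS. It was lower in LPS than in Control, at -0.32 (-0.49 to -0.15), and higher in WT PDZ+LPS than in LPS, at 0.28 (0.11 to 0.46), which placed WT PDZ+LPS/Control at -0.037 (-0.20 to 0.13). It was lowest in mut PDZ+LPS, at -0.60 (-0.82 to -0.39) against LPS and -0.30 after correction.

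All 6 ZnT members were lower in mut PDZ+LPS than in LPS, each beyond counting error in a library where 39.4% of all genes with the same summed counts were, with a median of -0.49. After the correction the median was -0.16 and 4 of the 6 were below 0. Over all 23 metal transporters, 18 were lower in mut PDZ+LPS/LPS and 16 of these beyond counting error, beside 39.4% of all genes with the members' summed counts, with a median of -0.37, or -0.19 after correction. SLC39A9 (ZIP9) had 2006, 2175, 2108 and 1207 and was among the 6 lowest in that comparison, at -0.85 and -0.53 corrected. SLC39A4 (ZIP4), the zinc importer of the gut, had 250, 225, 252 and 345 and was among the highest, at 0.62 (0.37 to 0.87), with 0.18 after correction. The summed normalized counts of the class were 36330 for Control, 53648 for LPS, 54818 for WT PDZ+LPS and 43910 for mut PDZ+LPS.

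**Figure D4:**
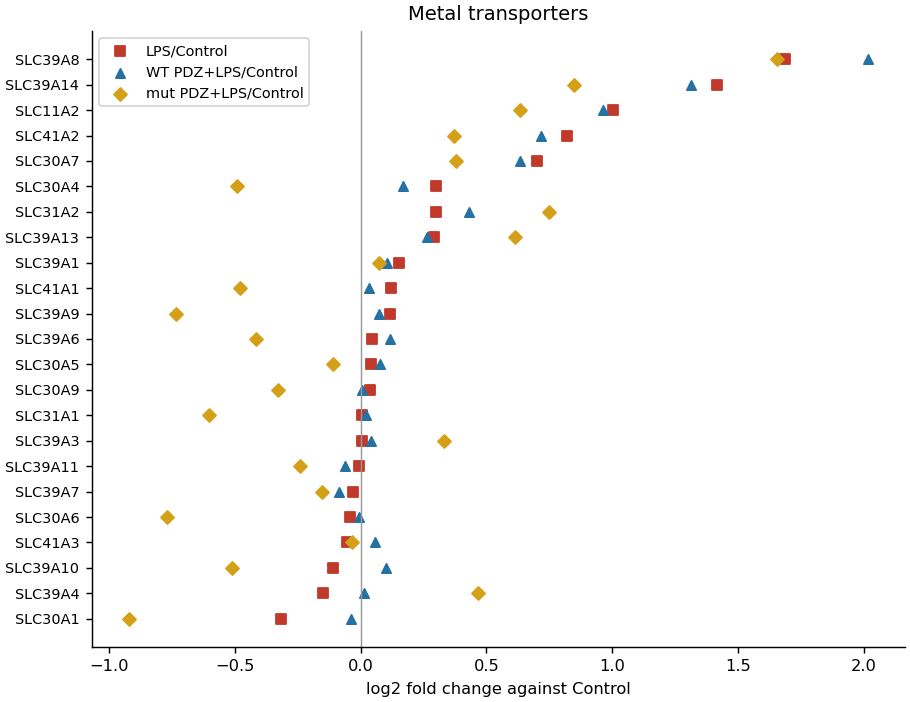
Log2 fold change against the same single Control library (horizontal axis) of the 23 metal transporters, ordered by LPS/Control, with 1 marker for LPS and 1 for each peptide with LPS, wild-type and mutant. SLC39A8 (1.69, 2.02 and 1.66) and SLC39A14 (1.42, 1.31 and 0.85) stand to the right, SLC30A1 has the lowest LPS/Control value (-0.32), and in most rows the mut PDZ+LPS marker lies left of the others.

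Sugar transporters were led by SLC2A6 (GLUT6), a member of the facilitative glucose transporter family that sits mainly on lysosomes. Its normalized counts were 704 for Control, 2274 for LPS, 2130 for WT PDZ+LPS and 2882 for mut PDZ+LPS. Every library with LPS was over 3 times Control, and mut PDZ+LPS was the highest. The log2 fold change was 1.69 (1.58 to 1.81) for LPS/Control. Relative to LPS, the wild-type peptide library was at -0.094 (-0.18 to -0.0095) and the mutant one at 0.34 (0.26 to 0.42), the latter 0.030 after correction.

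SLC2A1 (GLUT1), the main glucose importer of most cultured cells, had 2592 for Control, 2688 for LPS, 2798 for WT PDZ+LPS and 2550 for mut PDZ+LPS. The 4 libraries were close, and its LPS/Control value of 0.053 (-0.022 to 0.13) was not a detectable difference. The 14 GLUT genes had 5 members, 4 above 0 and 1 below in LPS/Control, with only SLC2A6 at 2-fold and a median of 0.31. SLC2A3 (GLUT3) had 65 summed counts. SLC37A4, the glucose 6-phosphate transporter of the endoplasmic reticulum, had 1090, 997, 995 and 1034, with -0.13 (-0.25 to -0.0100) for LPS/Control. SLC5A3, the sodium-coupled myo-inositol transporter, had 729 for Control, 802 for LPS, 928 for WT PDZ+LPS and 481 for mut PDZ+LPS. It was highest in WT PDZ+LPS and lowest in mut PDZ+LPS, at 0.21 (0.074 to 0.35) and -0.74 (-0.91 to -0.57) against LPS. Its transcript has 11576 bases, and the corrected values were 0.16 and -0.18.

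Ion transporters held SLC12A7 and SLC34A2 among the called genes. SLC12A7 (KCC4), which carries potassium and chloride out of the cell together, had 1773 for Control, 5650 for LPS, 4678 for WT PDZ+LPS and 5408 for mut PDZ+LPS. LPS was the highest and WT PDZ+LPS the lowest of the 3 libraries with LPS. The log2 fold change was 1.67 (1.60 to 1.75) for LPS/Control. WT PDZ+LPS/LPS gave -0.27 (-0.33 to -0.22), among the 6 lowest of all members, and mut PDZ+LPS/LPS gave -0.063 (-0.12 to -0.0073), or 0.030 after correction. These relatives were under 2-fold in LPS/Control. SLC12A4 (KCC1) was at 0.31 and SLC12A2 (NKCC1), the cotransporter that loads epithelial cells with chloride, at 0.40 (0.28 to 0.53).

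SLC12A2 had 889 for Control, 1178 for LPS, 1166 for WT PDZ+LPS and 590 for mut PDZ+LPS. The LPS and WT PDZ+LPS libraries were level, Control was lower and mut PDZ+LPS the lowest. It was just short of 2-fold in mut PDZ+LPS/LPS, at -0.996 (-1.15 to -0.85), with -0.58 after correction. SLC34A2 (NaPi-IIb), the sodium-phosphate cotransporter known from alveolar epithelium, was a low-count gene with 95.7 for Control, 279 for LPS, 298 for WT PDZ+LPS and 186 for mut PDZ+LPS. Control was clearly the lowest. SLC34A2 stood at 1.54 (1.22 to 1.87) for LPS/Control and -0.59 (-0.88 to -0.31) for mut PDZ+LPS/LPS, or -0.41 corrected, while WT PDZ+LPS/LPS at 0.092 (-0.14 to 0.33) was not a detectable difference. The other kind of sodium-phosphate cotransporter, SLC20A1 (PiT1), was far more abundant, with 3818 for Control, 6611 for LPS, 6181 for WT PDZ+LPS and 4938 for mut PDZ+LPS. It was at 0.79 (0.74 to 0.85) for LPS/Control, under 2-fold, and its relative SLC20A2 was at 0.053 (-0.087 to 0.19).

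Bicarbonate cotransporters, which regulate cell pH, were under 2-fold in LPS/Control. SLC4A7 (NBCn1), a sodium-bicarbonate cotransporter, had 2044, 2116, 2429 and 1506 and was at 0.050 (-0.034 to 0.13), with 0.20 (0.12 to 0.28) for WT PDZ+LPS/LPS. The other bicarbonate cotransporter SLC4A5 had 198, 331, 274 and 294, at 0.74 (0.49 to 0.99) for LPS/Control and -0.27 (-0.51 to -0.042) for WT PDZ+LPS/LPS, but 55.2% of its transcript is shared with an overlapping annotated gene, so reads could be split. In WT PDZ+LPS/LPS the lowest 2 ion transporters were SLC9A9, an endosomal sodium-proton exchanger, at -0.48 (-0.87 to -0.11), and SLC24A1, a potassium-dependent sodium-calcium exchanger, at -0.39 (-0.66 to -0.12). They had 104, 137, 97.9 and 76.4 and 238, 254, 194 and 132 normalized counts, lowest in mut PDZ+LPS. Of the 22 ion transporters, 14 were lower in mut PDZ+LPS/LPS beyond counting error and 2 higher, beside 39.4% and 31.3% of all genes with the members' summed counts, with a median of -0.28, or -0.081 after correction.

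Amino acid transporters held 1 called gene in LPS/Control, SLC7A2 (CAT2), an importer of arginine, lysine and ornithine. Its normalized counts were 2969 for Control, 6494 for LPS, 6766 for WT PDZ+LPS and 3324 for mut PDZ+LPS. The LPS and WT PDZ+LPS libraries were near each other at over 2 times Control, and mut PDZ+LPS was nearer Control, at 0.16 against it as counted and 0.57 after correction. The log2 fold change was 1.13 (1.07 to 1.19) for LPS/Control and 0.059 (0.010 to 0.11) for WT PDZ+LPS/LPS. It was -0.97 (-1.03 to -0.90) for mut PDZ+LPS/LPS and -1.03 (-1.09 to -0.96) for mut PDZ+LPS/WT PDZ+LPS. Its transcript of 7638 bases is long, and the last 2 values were -0.51 and -0.53 after correction. SLC7A1 (CAT1), the arginine importer present in most cells, had 4031 for Control, 5688 for LPS, 5929 for WT PDZ+LPS and 3765 for mut PDZ+LPS. It was again highest in WT PDZ+LPS and close behind in LPS, with mut PDZ+LPS below Control as counted (-0.099) but above it after correction (0.25). It was at 0.50 (0.44 to 0.55) for LPS/Control and -0.60 (-0.66 to -0.53) for mut PDZ+LPS/LPS, or -0.20 corrected.

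The CD98 heavy chain SLC3A2 and the light chains that pair with it were followed as a set of 7 genes, of which 4 were members. SLC3A2 itself had 5089 for Control, 4976 for LPS, 5019 for WT PDZ+LPS and 5998 for mut PDZ+LPS and was flat in LPS/Control, at -0.032 (-0.086 to 0.022). Its partner SLC7A5 (LAT1), which exchanges leucine and other large neutral amino acids, had 10820 for Control, 17323 for LPS, 16855 for WT PDZ+LPS and 16687 for mut PDZ+LPS. The 3 libraries with LPS were nearly level and all above Control, at 0.68 (0.65 to 0.71) for LPS/Control. SLC7A11 (xCT), the partner that takes up cystine in exchange for glutamate, had 427 for Control, 649 for LPS, 579 for WT PDZ+LPS and 317 for mut PDZ+LPS. LPS was the highest and mut PDZ+LPS the lowest, at 0.60 (0.43 to 0.77) for LPS/Control and -1.03 (-1.24 to -0.83) for mut PDZ+LPS/LPS. The last value was -0.56 after correction. The fourth, SLC7A6, was at 0.15 (0.082 to 0.23) for LPS/Control. The median of the set was 0.38 in LPS/Control and -0.014 in WT PDZ+LPS/LPS. In LPS/Control 3 of 4 were above 0 beyond counting error, beside 29% of genes with the same summed counts, and none was at 2-fold.

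Of 10 transporters known as targets of the amino acid stress factor ATF4, 8 were members. In LPS/Control 4 were higher and 3 lower beyond counting error, beside 29% and 22.6% of genes with the same summed counts. The higher ones were SLC38A2, SLC7A5, SLC7A11 and SLC7A1. SLC38A2 (SNAT2), a sodium-coupled importer of small neutral amino acids, had 16848 for Control, 26470 for LPS, 24656 for WT PDZ+LPS and 20723 for mut PDZ+LPS and was at 0.65 (0.63 to 0.68). The lower ones were SLC1A4 (ASCT1) at -0.50 (-0.74 to -0.27), SLC1A5 (ASCT2), the main glutamine importer, at -0.33 (-0.39 to -0.27), and SLC43A1 (LAT3) at -0.53 (-0.77 to -0.29). The set was thus divided in direction, and its median was 0.23 in LPS/Control. Against LPS the median was 0.011 with the wild-type peptide and -0.098 with the mutant one, the latter -0.060 after correction. SLC1A4 had 334, 236, 292 and 214 normalized counts, so that WT PDZ+LPS lay between LPS and Control, at 0.30 (0.057 to 0.56) against LPS.

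Among the remaining amino acid transporters, SLC43A2 (LAT4) was 0.73 (0.60 to 0.86) for LPS/Control with 662, 1099, 1100 and 1081 normalized counts, and it was named after its value was seen. SLC1A3, the glutamate importer known from glia, had 88.8, 97.8, 127 and 121 and gave the highest value of all members in WT PDZ+LPS/LPS, 0.38 (-0.0070 to 0.77), whose interval reached 0. SLC36A1, a proton-coupled amino acid exporter of lysosomes, had 632 for Control, 623 for LPS, 675 for WT PDZ+LPS and 364 for mut PDZ+LPS. It was level in the other 3 libraries and lower in mut PDZ+LPS, at -0.89 (-1.09 to -0.69) against WT PDZ+LPS and -0.56 after correction. Over the class of 22, the LPS/Control median was 0.089. Beyond counting error 9 were higher and 3 lower, beside 29% and 22.6% of genes with the same summed counts.

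The nucleoside and nucleobase class was small, with 3 members of 8 symbols. SLC29A1 (ENT1), the main equilibrative nucleoside transporter, had 889 for Control, 760 for LPS, 884 for WT PDZ+LPS and 483 for mut PDZ+LPS. Control and WT PDZ+LPS were level, LPS was lower and mut PDZ+LPS the lowest. It was at -0.23 (-0.36 to -0.091) for LPS/Control and 0.22 (0.078 to 0.36) for WT PDZ+LPS/LPS. It was at -0.87 (-1.04 to -0.70) for mut PDZ+LPS/WT PDZ+LPS. Its transcript is short, with 2326 bases, and the correction set the last value at -1.06. SLC29A2 (ENT2) had 773, 766, 780 and 822 and no detectable difference in LPS/Control, at -0.013 (-0.15 to 0.13). SLC43A3, a purine nucleobase transporter, had 5209, 6256, 6301 and 5286 and was at 0.26 (0.21 to 0.32). An overlapping annotated gene shares 41.9% of its transcript. SLC28A3, the concentrative transporter CNT3, had 2 summed counts. The 5 nucleotide sugar carriers, a family of the Golgi, SLC35A1 to SLC35A5, lay between -0.33 and 0.18 in LPS/Control.

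Among the carriers of other organic solutes, SLC16A6 (MCT7) had the largest value of any member in LPS/Control. This transporter of the monocarboxylate family has been linked to the export of ketone bodies and taurine. Its normalized counts were 205 for Control, 845 for LPS, 849 for WT PDZ+LPS and 818 for mut PDZ+LPS. The 3 libraries with LPS lay within a few percent of each other, all about 4 times Control. The log2 fold change was 2.03 (1.83 to 2.25) for LPS/Control, and both peptides differed from LPS by less than counting error, at 0.0077 (-0.13 to 0.14) for WT PDZ+LPS and -0.047 (-0.19 to 0.098) for mut PDZ+LPS, or 0.13 after correction. Of the stretches of 100 bases in its transcript, 4.15% also occur in the pseudogene SLC16A6P1.

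Of 4 lactate and pyruvate carriers, 3 were members, namely SLC16A1 (MCT1), SLC16A3 (MCT4) and SLC16A7 (MCT2). In LPS/Control their values were 0.080, 0.095 and -0.051, with none at 2-fold and a set median of 0.080, and the first and second are below 0 under total-count scaling. SLC16A3, the exporter typical of glycolytic cells, had 15392 for Control, 16442 for LPS, 17170 for WT PDZ+LPS and 23125 for mut PDZ+LPS. It was highest in mut PDZ+LPS, at 0.49 (0.46 to 0.52) against LPS, and 0.50 after correction. SLC16A7 had 2297 for Control, 2216 for LPS, 2462 for WT PDZ+LPS and 1339 for mut PDZ+LPS, lowest in mut PDZ+LPS, at -0.73 (-0.83 to -0.62) and -0.24 corrected.

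SLC22A3 (OCT3), an organic cation transporter that also carries monoamines, had 132 for Control, 145 for LPS, 125 for WT PDZ+LPS and 67.0 for mut PDZ+LPS. It was the lowest member in mut PDZ+LPS/LPS, at -1.10 (-1.58 to -0.67), and its corrected value of -0.99 was just short of 2-fold. The thiamine transporter SLC19A2, named after its value was seen, was at 0.65 (0.49 to 0.82) for LPS/Control with 435, 684, 676 and 653, and its relative SLC19A1, the reduced folate carrier, was at -0.057 (-0.21 to 0.095) and, in WT PDZ+LPS/LPS, 0.26 (0.11 to 0.42). The choline transporter SLC44A1 had 6308, 6571, 7613 and 5273 and was at 0.21 (0.17 to 0.26) for WT PDZ+LPS/LPS. SLC27A3, of the fatty acid transport family, was at 0.34 (0.032 to 0.66) there, and the riboflavin transporter SLC52A2 was at 0.54 (0.44 to 0.64) for mut PDZ+LPS/LPS and 0.100 after correction.

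Mitochondrial carriers, the largest class, were on balance flat in LPS/Control, with 14 of 36 above 0, 22 below and a median of -0.046. SLC25A37 (mitoferrin-1), which brings iron into the matrix for heme and iron-sulfur clusters, was the member of the class at 2-fold. It was at 0.92 under total-count and 0.990 under upper-quartile scaling, so that its call depends on the scaling. Its normalized counts were 802 for Control, 1662 for LPS, 1527 for WT PDZ+LPS and 2472 for mut PDZ+LPS. Control was the lowest and mut PDZ+LPS the highest, at 1.05 (0.94 to 1.17) for LPS/Control. Against LPS it was -0.12 (-0.22 to -0.023) with the wild-type and 0.57 (0.48 to 0.66) with the mutant peptide. Its transcript of 4823 bases is among the longer ones, and the correction raised the last value to 0.84.

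SLC25A28 (mitoferrin-2), which shares the same iron-import role, had 473 for Control, 740 for LPS, 651 for WT PDZ+LPS and 1101 for mut PDZ+LPS, with the same order of libraries. It was at 0.64 (0.49 to 0.81) for LPS/Control and 0.57 (0.43 to 0.71) for mut PDZ+LPS/LPS, where the corrected value was 0.20. SLC25A29, a carrier of basic amino acids, had 623 for Control, 501 for LPS, 521 for WT PDZ+LPS and 818 for mut PDZ+LPS and was the highest member in mut PDZ+LPS/LPS, at 0.70 (0.54 to 0.87) and 0.86 corrected. SLC25A20, the carnitine-acylcarnitine carrier of fatty acid oxidation, had 313 for Control, 318 for LPS, 235 for WT PDZ+LPS and 190 for mut PDZ+LPS. Control and LPS were level, and both peptide libraries were lower, at -0.43 (-0.68 to -0.19) for WT PDZ+LPS and -0.74 (-1.02 to -0.47) for mut PDZ+LPS, with -0.90 for the latter after correction.

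Of the 4 adenine nucleotide translocases, which exchange ADP and ATP across the inner membrane, SLC25A4 and SLC25A5 were members and SLC25A6 was listed at 0 in all libraries. The counting program and its annotation are not known, so this 0 does not show that SLC25A6 was silent. The LPS/Control values of SLC25A4 and SLC25A5 were 0.025 (-0.12 to 0.17) and -0.019 (-0.054 to 0.016), neither a detectable difference. In WT PDZ+LPS/LPS they were -0.19 (-0.34 to -0.033) and -0.061 (-0.098 to -0.025). The phosphate carrier SLC25A3 had 12032, 11734, 12104 and 12838 and was at -0.036 (-0.071 to -0.0012) for LPS/Control. Against LPS it was at 0.13 (0.093 to 0.17) with the mutant peptide, or 0.51 after correction. Among the less abundant carriers SLC25A30 was at -0.45 (-0.65 to -0.26) and SLC25A27 (UCP4) at -0.38 (-0.73 to -0.026) for LPS/Control, SLC25A14 (UCP5) was at 0.37 (0.042 to 0.71) and SLC25A43 at -0.23 (-0.42 to -0.029) for WT PDZ+LPS/LPS. The glutamate carrier SLC25A22 was at 0.44 (0.33 to 0.55) for mut PDZ+LPS/WT PDZ+LPS and 0.16 after correction.

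Among the 9 genes without a settled substrate, SLC16A14 stood apart. It is a monocarboxylate transporter family member with normalized counts of 4492 for Control, 2977 for LPS, 2700 for WT PDZ+LPS and 2167 for mut PDZ+LPS. Control was the highest and mut PDZ+LPS the lowest, and all 3 libraries with LPS were below Control. The log2 fold change was -0.59 (-0.66 to -0.53) for LPS/Control, -0.73 (-0.80 to -0.67) for WT PDZ+LPS/Control and -1.05 (-1.13 to -0.97) for mut PDZ+LPS/Control, or -0.81 for the last after correction. SLC22A15, a low-count relative of the organic cation transporters with 155, 101, 107 and 90.5, was at -0.62 (-0.98 to -0.27) for LPS/Control. These 2 were the only members lower by 1.5-fold in that comparison, the count set beside the share of genes with the same summed counts above. SLC16A13 was at 0.35 (-0.053 to 0.77) for WT PDZ+LPS/LPS, with an interval that reached 0.

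Against the same Control library, WT PDZ+LPS had 7 members 2-fold higher (4.46%) and none lower. The shares of genes passing the expression rule were 3.28% and 1.42%, and of those with the same summed counts 2.57% and 0.175%. mut PDZ+LPS had 6 members higher (3.82%) and 1 lower (0.637%), beside 5.13% and 2.96%, or 3.07% and 1.63%. These comparisons share Control with LPS/Control and so do not repeat it independently. SLC25A37 and SLC11A2 were under 2-fold in WT PDZ+LPS/Control, at 0.93 and 0.96. In mut PDZ+LPS/Control, SLC39A14 was at 0.85 (1.09 corrected), SLC34A2 at 0.95 (1.12 corrected) and SLC11A2 at 0.63 (0.86 corrected), while SLC25A28 passed the threshold at 1.22 (0.90 corrected). After the correction, 7 members were higher in mut PDZ+LPS/Control, with SLC39A14 and SLC34A2 among them and SLC25A28 not, and SLC29A1 was the 1 lower in place of SLC16A14.

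**Figure D5:**
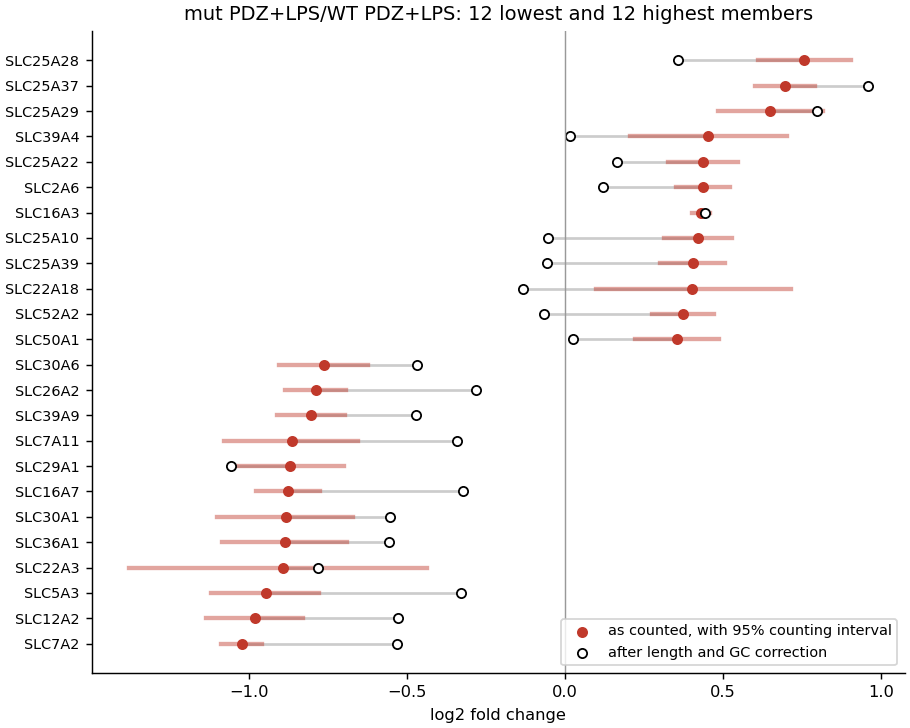
Log2 fold change in mut PDZ+LPS/WT PDZ+LPS (horizontal axis) of the 12 lowest and 12 highest members, with the 95% counting interval of the 2 libraries as a bar and the value after the length and GC correction as an open circle. Most open circles lie nearer 0 than the filled ones, as for SLC7A2 (-1.03 and -0.53), whereas SLC29A1 (-0.87 and -1.06), SLC25A37 (0.69 and 0.96) and SLC25A29 (0.65 and 0.80) lie farther out.

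Other transporter families with the same summed counts gave a background for LPS/Control. Of 33 SLC symbols with another letter, such as the SLC35B to SLC35F carriers, 21 had 400 or more summed counts, with a median of -0.024 and none at 2-fold. The SLCO organic anion transporters had 2 of 12, at 0.081 and 0.29. The ABC transporters had 24 of 46, with a median of 0.022, 1 gene 2-fold higher and none lower. That gene was ABCA1, the exporter of cholesterol and phospholipid, named after its value was seen, with normalized counts of 240, 1759, 2020 and 1285 and a log2 fold change of 2.87 (2.69 to 3.06), above that of every member. In WT PDZ+LPS/LPS none of these 3 families had a gene at 2-fold.

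The 177 symbols below the limit included 52 with 0 counts in every library and 125 with counts. The classes differed in the share kept: 23 of 32 metal symbols and all 5 nucleotide sugar symbols were members, but 9 of 28 sugar symbols and 28 of 83 symbols for other organic solutes. Some members share sequence with other annotated genes, which the counting could have split. The shared part was 87.7% for SLC25A32, 70.7% for SLC39A1 and 55.5% for SLC25A10. The antisense gene SLC25A25-AS1 had 1280 summed counts, and without knowledge of strand in the counting its reads cannot be told apart from those of SLC25A25.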

How the data were processed

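RNA from BEAS-2B cells was poly(A) selected and sequenced as paired ends of 100 bases from a directional kit, with 1 library for each of 4 conditions. The authors deposited raw whole-number counts per gene symbol for each library. They had trimmed the reads and aligned them with TopHat, and the submitters' processing notes name hg19. The counting program, its annotation and whether it used strand are not given in the sources used here. The study's text names FPKM and geometric normalization, but the deposited values are counts.

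Counts were divided by geometric size factors (DESeq2 1.42.0 in R 4.3.3), and fold changes were taken on the log2(normalized count + 1) scale. With 1 library a condition no test was possible. A gene was called at 2-fold with at least 16 normalized counts in either library. Exact 95% Clopper-Pearson intervals (scipy 1.17.1) cover counting error only. Transcript length and GC content came from the longest coding transcript in GENCODE 29, found for 11751 of 13072 expressed genes and all 157 members. Their trends were removed by lowess with a span of 0.3 (statsmodels 0.14.6). Alternatives were scaling by total count, by upper quartile or by TMM (edgeR 4.0.16), no minimum level, a pseudocount of 5, folds of 1.5 and 3, floors of 100 and 1000 summed counts, and the correction. The calculation was tested on simulated counts with counting error alone and on a planted length trend. Such data check the arithmetic and hold no variation between real libraries. Promoter windows came from RefSeq.

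The members, substrate classes, gene sets and markers were chosen with earlier results of these data known, and the classes and sets come from general knowledge. Named genes were the 6 highest and 6 lowest members in each of 4 comparisons, every member called at 2-fold, and transporters of known role fixed by name. Any other gene named was chosen after its values were seen. Some genes are not reported here.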

Additional observations from a re-analysis of the deposited data

Results flagged for a closer look

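In 14 members the mutant and the wild-type peptide libraries lay on opposite sides of the LPS library beyond counting error, and had opposite signs again once length and GC content were corrected for. The mutant was the lower in 10 of them and the higher in 4. The 6 that are given here are those at least 1.5-fold from LPS with the mutant peptide as counted, and the other 8 were under that fold. The share of all genes on opposite sides of LPS in this way was not computed, so the 14 are a description. Among genes with the members' summed counts, the interval lay below 0 for 39.4% and above 0 for 31.3% in mut PDZ+LPS/LPS. In WT PDZ+LPS/LPS it lay below 0 for 10.8% and above 0 for 13.4%. With 1 library a condition the difference between the peptides was not tested. With LPS as the denominator, the log2 fold changes of the mutant and then of the wild-type peptide were -0.65 and 0.22 for the nucleoside transporter SLC29A1, or -0.82 and 0.23 corrected. For the arginine transporters they were -0.97 and 0.059 for SLC7A2, or -0.51 and 0.028 corrected, and -0.60 and 0.060 for SLC7A1, or -0.20 and 0.055 corrected. The zinc exporter SLC30A1 was at -0.60 and 0.28, or -0.30 and 0.25 corrected. The inositol transporter SLC5A3 was at -0.74 and 0.21, or -0.18 and 0.16 corrected, and the pyruvate carrier SLC16A7 at -0.73 and 0.15, or -0.24 and 0.092 corrected. SLC29A1 alone of the 6 was farther from 0 in mut PDZ+LPS/LPS after the correction.

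Below the limit of summed counts, the vitamin C transporter SLC23A1 had 19 counts for LPS, against 7 for Control, 4 for the wild-type and 5 for the mutant peptide. It was singled out because it lies outside the members and was above Control, and no replicate exists to check it.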

How the results depend on the processing

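The LPS/Control median of the members was 0.029 with geometric size factors, but -0.10 with total-count and -0.032 with upper-quartile scaling, close to the shift of all expressed genes. In LPS/Control, 19 members were higher at 1.5-fold and 4 at 3-fold, against 9 at 2-fold, and 2 were lower at 1.5-fold against 0. In WT PDZ+LPS/LPS, 2 were lower with a floor of 100 summed counts, which admits 186 members. In mut PDZ+LPS/LPS, against 2 lower, there were 1 with total-count scaling, 1 with upper-quartile scaling, 3 with TMM, 3 with a floor of 100, 1 with a floor of 1000 (133 members), 23 at 1.5-fold, 0 at 3-fold and 0 after the length and GC correction, and 2 were higher at 1.5-fold. Between the peptides, against 1 lower, the count was 0 with total-count scaling, 0 with upper-quartile scaling, 23 at 1.5-fold, 0 at 3-fold and 2 with a floor of 100, while 3 were higher at 1.5-fold and 1 with a floor of 100, and the median moved from -0.13 to -0.067 with upper-quartile scaling. Apart from the changed folds and floors and the correction, the causes were not tested. Over the named genes in the 4 comparisons, TMM and a pseudocount of 5 left all 224 values within their counting intervals, while total-count scaling moved 35, upper-quartile scaling 45 and the correction 76 of them outside.

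No paired analysis was possible because each condition had 1 library, and leaving out a library would remove a condition. Low-count members such as SLC9A9 and SLC16A13 have wide counting intervals.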
